A study of Mus musculus with 18 samples.

Results

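Kidneys of ICR mice on a high fat diet (HFD) that had received a faecal microbiota transplant labelled as control (HFD+control-FMT) were compared with kidneys of control mice, at the level of messenger RNA. These are 6 of the 18 libraries of the series, 3 from HFD+control-FMT mice and 3 from control mice, chosen by their labelled treatment. All were from mice of the outbred ICR strain aged 10 weeks. The control mice are labelled with neither diet nor transplant, so the comparison contains both the diet and the transplant, and the 2 cannot be told apart in it. Mice on HFD with no transplant (HFD, 3 libraries) are given beside it for some genes. The remaining 9 libraries, from mice given AOS (named as the labels give it) at 10 mg/kg, or HFD mice given AOS or a transplant labelled AOS, entered the estimate of the spread and are not described. The labels give neither the length of the diet, the donor and number of the transplants, the sex of the mice nor the hour of collection, and nothing in them states that each library is a separate animal. P-values therefore cover the spread among these samples alone, part or all of which may be technical.

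A faecal transplant moves gut microbes from a donor into a recipient, and microbial products such as short chain fatty acids, bile acids and indoles reach the kidney through the blood. The kidney burns fatty acids in its proximal tubule, and on a diet rich in fat the transcription factor SREBP-1c and its targets, the enzymes that build and desaturate fatty acids, are known to respond to insulin and to dietary polyunsaturated fat. The distal nephron and collecting duct, farther along the same tubule, set salt, calcium and acid excretion, and release tissue kallikrein into the urine.

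Values are the authors' normalized signals per gene, whose unit the labels do not state, and differences are HFD+control-FMT minus control on a log2(value + 1) scale, on which low genes appear to change less than they do. A gene is called where the limma p-value, adjusted over all 12031 genes tested by the Benjamini-Hochberg method, is below 0.05. Intervals are 95% intervals of the same model.

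The 6 libraries differed in ways that the labelled treatment does not name. Control replicate 3 held transcripts of the adrenal gland: the 12 adrenal genes listed summed to 931 in it, against 0.85 to 1.39 in the HFD+control-FMT libraries and 2.15 and 1.84 in control replicates 1 and 2. Kap, a proximal tubule protein under androgen control, took 20.2% to 22.9% of the summed signal in HFD+control-FMT, 21.2% and 20.9% in control replicates 1 and 2, and 2.48% in control replicate 3. That library had the highest value of the 6 for 60.9% of the genes tested and the lowest for 14.2%. Counts of calls, list medians and most differences of named genes are therefore given with and without it. Several messenger RNAs of testis germ cells were in all 3 controls and at or near 0 in the HFD+control-FMT libraries: Prm1, Prm2, Tnp1 and Tnp2 summed to 0, 0.3 and 0.15 in HFD+control-FMT, and to 26.7, 26.1 and 37.1 in controls. The whole list of 15 germ cell genes summed to 18.99 to 23.2 in HFD+control-FMT and to 64.7 to 70.2 in controls, and most of its sum in HFD+control-FMT was Smcp, a sperm mitochondrial protein, at 21.3, 16.6 and 20.6, against 30.2, 33.6 and 14.2 in controls. Whatever brought these RNAs into the libraries cannot be told apart from the treatment here. The proximal tubule markers checked the tissue label: all 17 were measured, and they summed to 9533 to 10803 in HFD+control-FMT, and to 9579, 10151 and 6813 in control replicates 1, 2 and 3. From the steps between low values, the relative depth was 0.865 in control replicate 3, 0.9 in control replicate 1 and 0.96 to 1.03 in the other 16 libraries, so the low values of those 2 controls carry the largest counting error. The number of reads is unknown.

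With all libraries, 30 genes were called, which is 0.249% of those tested: 9 were higher in HFD+control-FMT (0.0748%) and 21 lower (0.175%). Without control replicate 3, 46 were called (0.382%), 26 higher (0.216%) and 20 lower (0.166%). Of these, 20 genes were called both ways, 7 higher and 13 lower, and all 56 genes called in at least 1 of the 2 fits had the same sign in both. Unadjusted p-values were below 0.05 for 2285 genes with all libraries and for 1509 without control replicate 3. Both groups stood wholly apart for 17.7% of genes, 4.44% higher in HFD+control-FMT and 13.2% lower, and for 29.7% without control replicate 3 (12.8% and 16.9%), when there are fewer controls to overlap with. The difference was negative for 70.9% of all genes, and for 55.1% without control replicate 3. The median difference over all genes was -0.09, and -0.02 without control replicate 3. Quantile normalization moved it to 0.01 and called 70 genes, 36 higher and 34 lower, and scaling to equal medians moved it to 0.02 and called 64, 31 higher and 33 lower. The differences below are read beside that median. The calls rested on all 3 transplant libraries: 0, 1 and 0 genes were called without HFD+control-FMT replicate 1, 2 and 3, and the 1 gene was Klk1b5, while unadjusted p-values were below 0.05 for 1761, 1715 and 1614 genes. In the fit without control replicate 3 the same omissions left 8, 0 and 2 genes, with 1351, 1220 and 1384 below 0.05 unadjusted. Leaving out control replicate 1 left 13 calls and leaving out control replicate 2 gave 406. With the germ cell libraries as a batch term, which the HFD libraries alone make estimable, 0 genes were called and 737 had an unadjusted p below 0.05.

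**Figure D1:**
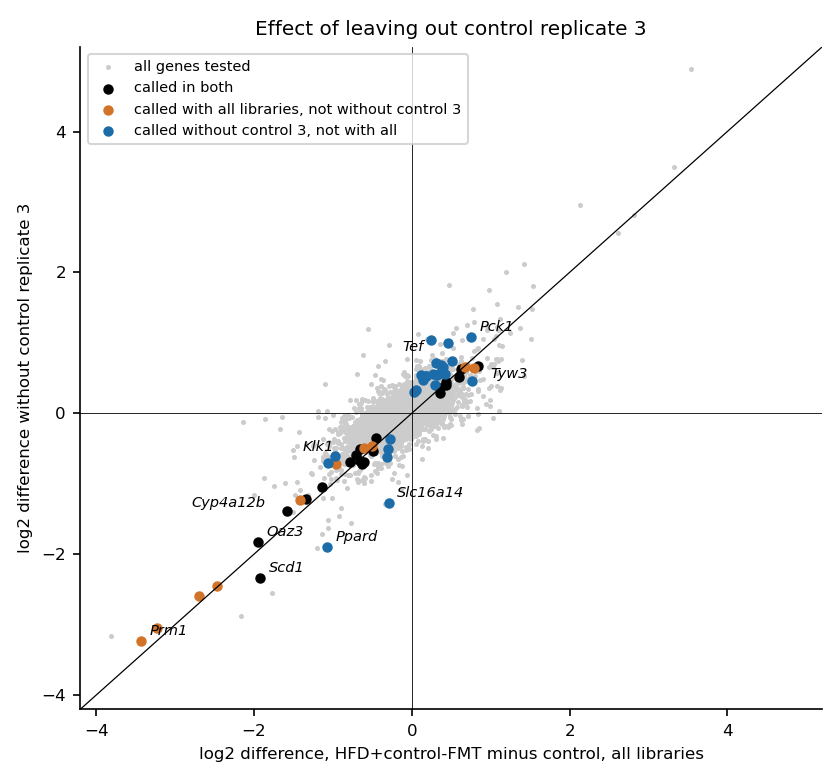
Log2 difference of each gene, HFD+control-FMT minus control, with all libraries (x axis) and without control replicate 3 (y axis). Black points are the 20 genes called both ways, orange points the 10 called with all libraries only, blue points the 26 called without control replicate 3 only, and the line marks equal differences. Scd1 and the germ cell gene Oaz3 lie near the line, while Ppard and Slc16a14 lie farther from 0 once control replicate 3 is left out.

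Among genes of fat synthesis, Scd1 and Fads1, both desaturases, were lower in HFD+control-FMT. Scd1, the stearoyl-CoA desaturase that makes monounsaturated fatty acids (chromosome 19, 44394455 to 44407879, minus strand of GRCm38), had values of 16.1, 10.6 and 11.8 in HFD+control-FMT, 27.9, 19.9 and 21.5 in HFD and 82.1, 56.02 and 27.8 in controls. The HFD+control-FMT libraries all lay below the lowest control, and the HFD libraries lay above them. The mean was 12.8 ± 2.93 in HFD+control-FMT and 55.3 ± 27.1 in controls (SD, n = 3 each). Scd1 fell by 1.92 on the log2 scale (SE 0.35, interval -2.67 to -1.16, limma adjusted p = 0.0366), and by 2.34 without control replicate 3 (SE 0.33, adjusted p = 0.0261). Fads1, a desaturase of polyunsaturated fatty acid synthesis, stood at 19.6, 19.2 and 18.4 in HFD+control-FMT, 24.4, 23.3 and 27.6 in HFD and 26.96, 27.5 and 34.5 in controls. Its groups did not overlap (log2 difference -0.60, SE 0.11, adjusted p = 0.0348), and without control replicate 3 it narrowly missed the threshold at -0.49 (adjusted p = 0.0517).

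The other fatty acid synthesis genes were not called. Of 16 tested, 2 were called, both lower, and 8 lay wholly below the controls, where 13.2% of all genes did. The median difference of the 16 was -0.52, against -0.09 over all genes. Without control replicate 3 it was -0.47, against -0.02, with 1 called and 12 of 16 lying wholly below, where 16.9% of all genes did. Fasn, the fatty acid synthase, had 8.69, 5.81 and 7.97 in HFD+control-FMT, 16.9, 10.6 and 12.5 in HFD and 28.1, 22.3 and 7 in controls, with control replicate 3 inside the transplant range and the other controls far above it. Its difference was -1.07 (adjusted p = 0.207) with all libraries and -1.63 (adjusted p = 0.071) without that control. Acaca, the acetyl-CoA carboxylase that supplies malonyl-CoA to it, had 3.57, 2.68 and 3.31 in HFD+control-FMT against 8.16, 6.32 and 3.5 in controls (adjusted p = 0.176, and 0.0529 without control replicate 3). The same pattern, with control replicate 3 near the transplant libraries, was in Thrsp, a lipogenic protein of the liver and fat, at 2.71, 1.82 and 6.29 in HFD+control-FMT against 39.9, 22.8 and 6.09 in controls (difference -2.17, adjusted p = 0.182, and -2.88 and 0.172 without control replicate 3). In Scd2, another stearoyl-CoA desaturase, control replicate 3 was instead the highest library, with 8.25, 6.31 and 6.64 in HFD+control-FMT against 12.6, 11.8 and 23.2 in controls (difference -1.01, adjusted p = 0.0695, and -0.72 and 0.0795 without control replicate 3). Srebf1, which encodes SREBP-1c, had 7.95, 7.33 and 7.96 in HFD+control-FMT, 12.8, 8.29 and 9.46 in HFD and 10.3, 11.6 and 10.8 in controls, and its groups did not overlap (difference -0.44, adjusted p = 0.127, and -0.45 and 0.205 without control replicate 3). Elovl6, a fatty acid elongase, and Acacb, another acetyl-CoA carboxylase, also lay wholly below the controls, with differences of -1.03 and -0.69 (adjusted p = 0.127 and 0.126), and -0.62 and -0.51 without control replicate 3. The remaining 7 members had differences of -0.29 to 0.34, and 4 of the 16 were positive.

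**Figure D2:**
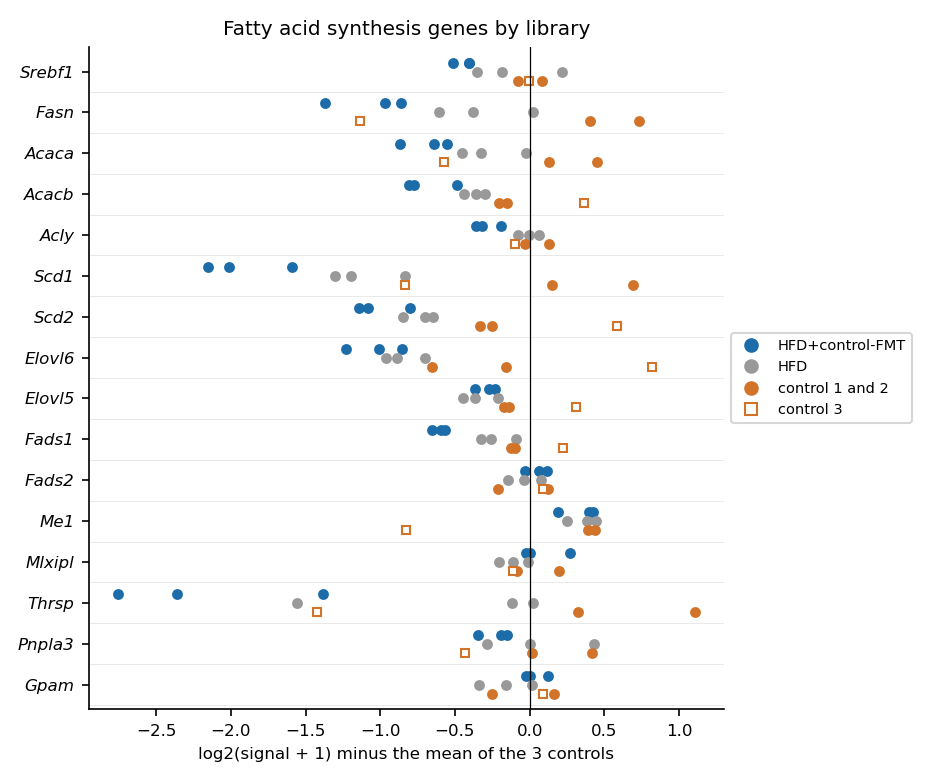
Fatty acid synthesis genes in each library, as log2(signal + 1) minus the mean of the 3 controls (x axis), with 1 row per gene and HFD+control-FMT above HFD and controls within a row. The transplant points of Scd1 lie left of every control, and control replicate 3 (open square) lies among the transplant points for Fasn, Acaca and Thrsp and far to the right for Scd2 and Elovl6.

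Fat tissue genes also differed between these libraries. The 15 white and brown fat genes listed summed to 261 to 506 in HFD+control-FMT and to 763, 588 and 203 in control replicates 1, 2 and 3. Adipoq, the hormone adiponectin of fat cells, had 11.8, 7.79 and 8.81 in HFD+control-FMT, 18.6, 9.52 and 34.9 in HFD and 25.4, 12.04 and 4.11 in controls. Retn, resistin, another fat cell hormone, had 8.37, 3.15 and 1.97 in HFD+control-FMT and 47.6, 15.7 and 4.74 in controls. Of the 12 tested, 0 were called; 11 had a negative difference with all libraries (median -0.17) and all 12 without control replicate 3 (median -0.72). Among the controls, the fat sum, Adipoq, Retn, Scd1, Fasn, Acaca and Thrsp were thus highest in replicate 1 and lowest in replicate 3. Fads1 and Scd2 were instead highest in control replicate 3. The other groups did not share this order. In HFD+control-FMT the fat sum (506) and Thrsp were highest in replicate 3, and Adipoq, Retn, Scd1, Fasn and Acaca in replicate 1. In HFD the fat sum (809) and Adipoq were highest in replicate 3, and Scd1 and Fasn in replicate 1. The part of fat tissue in the lower lipid synthesis genes was not tested. In bulk RNA, fewer cells of a type and less RNA per cell cannot be told apart.

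Most genes of cholesterol synthesis and uptake had lower means, without a call. Of 19 tested, 0 were called, 15 had a negative difference (70.9% of all genes did), 7 lay wholly below the controls and 1 wholly above (13.2% and 4.44% of all genes), and the median was -0.27, or -0.29 without control replicate 3. Fdps, which makes farnesyl diphosphate, had 13.3, 13.9 and 13.1 in HFD+control-FMT, 21.9, 19.5 and 22.2 in HFD and 18.6, 21.3 and 28.9 in controls (difference -0.71, adjusted p = 0.0902, and -0.54 and 0.15 without control replicate 3). Sqle, squalene epoxidase, had 15.2, 12.9 and 14.97 in HFD+control-FMT and 18.3, 22.9 and 36.8 in controls (difference -0.76, adjusted p = 0.115, and -0.49 and 0.207 without control replicate 3). The HFD values of Fdps lay within the control range, above all 3 transplant values. The exception was Cyp51, the lanosterol demethylase, at 96.8, 102 and 114 in HFD+control-FMT, 75.3, 83.7 and 89.6 in HFD and 85.7, 82.3 and 53.7 in controls (difference 0.52, adjusted p = 0.124, and 0.31 and 0.256 without control replicate 3).

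The median of the fat burning genes stayed near 0. Of 24 PPAR targets and fatty acid oxidation genes, 0 were called in either fit. Their median was -0.04, against 0.09 without control replicate 3, and 0.01 after quantile normalization. With all libraries 10 had a positive difference (29.1% of all genes), 1 lay wholly above the controls (4.44%) and 0 wholly below (13.2%). Without control replicate 3, 15 were positive (44.9% of all genes), 5 lay wholly above (12.8%) and 0 wholly below (16.9%). Ppara itself, the receptor that switches on fat burning, had 14.9, 14.9 and 13.1 in HFD+control-FMT, 11.5, 10.2 and 11.2 in HFD and 8.9, 10.96 and 12.1 in controls, without overlap (difference 0.40, adjusted p = 0.126, and 0.0795 without control replicate 3). Ppard, the receptor PPAR-delta (chromosome 17, 28232700 to 28301474, plus strand), had 19.5, 14.5 and 11.4 in HFD+control-FMT, 32.4, 28.3 and 30.4 in HFD and 54.7, 61.6 and 9.47 in controls. Control replicate 3 lay below every transplant library and the other controls far above, so the difference was -1.07 with all libraries (adjusted p = 0.247) and -1.90 without control replicate 3 (SE 0.22, adjusted p = 0.00923), the smallest adjusted p of that fit. The HFD libraries lay between the transplant libraries and those other controls. Cyp4a12b, a fatty acid hydroxylase of an androgen-responsive kidney family, stood at 2.34, 1.91 and 2.02 in HFD+control-FMT, 3.46, 2 and 3.22 in HFD and 7.83, 6.4 and 10.9 in controls. It fell by 1.58 (SE 0.23, adjusted p = 0.0174) and by 1.39 without control replicate 3 (adjusted p = 0.0262), and the HFD libraries lay near the transplant ones. The mouse genome holds near copies of this gene, so reads shared between them make its value uncertain.

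Kallikrein of the distal nephron was lower in HFD+control-FMT. Klk1, the tissue kallikrein that cuts kinins from kininogen (chromosome 7, 44225360 to 44229618, plus strand), had 1045, 1139 and 1087 in HFD+control-FMT, 1036, 1166 and 1249.9 in HFD and 1774, 1517 and 2074 in controls. The transplant and HFD values overlapped each other and lay below every control. Klk1 fell by 0.70 (SE 0.12, adjusted p = 0.0262), and by 0.59 without control replicate 3 (adjusted p = 0.0321). Klk1b5, a kallikrein 1-related gene beside it on the same strand (44215945 to 44220703), had 0.89, 1.67 and 0.97 in HFD+control-FMT, 2, 1.36 and 1.66 in HFD and 3.72, 3.16 and 4.43 in controls, and fell by 1.14 (adjusted p = 0.0174, and 0.0262 without control replicate 3). Klk1b9, another member, had 0.49, 0.78 and 0.67 in HFD+control-FMT and 1.41, 1.14 and 1.54 in controls and was not called (difference -0.52, adjusted p = 0.145, and -0.47 and 0.272 without control replicate 3). The mouse kallikreins are near copies of each other, so reads of one may be counted in another, and the direction of the small members is uncertain for that reason. The start regions of Klk1 and Klk1b5 are shown because the 2 genes were called together. They run from 250 bases before to 50 after the annotated start (RefSeq, GRCm38.p6, plus strand, chr7:44225110-44225409 and chr7:44216224-44216523). Capitals mark the stretch that aligns between the 2 regions, 207 columns with 176 identical bases (85.0%), set back against each other by the difference in annotated start. Most of each region lies before the start, so this does not show how alike the messenger RNAs are. The messenger RNAs were not aligned.
Klk1: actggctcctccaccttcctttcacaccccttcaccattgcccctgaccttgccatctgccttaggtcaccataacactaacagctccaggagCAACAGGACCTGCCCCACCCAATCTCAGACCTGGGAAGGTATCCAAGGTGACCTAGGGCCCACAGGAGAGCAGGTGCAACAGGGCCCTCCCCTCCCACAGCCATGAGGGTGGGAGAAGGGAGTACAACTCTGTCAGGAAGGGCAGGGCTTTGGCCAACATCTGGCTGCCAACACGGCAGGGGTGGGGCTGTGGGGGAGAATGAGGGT
Klk1b5: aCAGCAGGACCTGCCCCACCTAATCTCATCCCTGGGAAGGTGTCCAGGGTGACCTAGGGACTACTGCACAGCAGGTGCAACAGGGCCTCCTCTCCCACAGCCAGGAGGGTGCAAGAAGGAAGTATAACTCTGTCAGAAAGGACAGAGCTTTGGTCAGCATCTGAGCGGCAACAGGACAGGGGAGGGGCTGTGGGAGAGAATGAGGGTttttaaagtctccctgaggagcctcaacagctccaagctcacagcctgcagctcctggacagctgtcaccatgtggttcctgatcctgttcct

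The other loop of Henle and distal tubule genes mostly had lower means, without a call. Of 14 tested, 1 was called (Klk1), 13 had a negative difference (70.9% of all genes did), 7 lay wholly below the controls and 1 (Cldn10) wholly above (13.2% and 4.44% of all genes), and the median was -0.47. It was -0.23 without control replicate 3, with the same number of negative members. Calb1, the calcium-binding calbindin of the distal tubule, had 88.6, 67.3 and 94.1 in HFD+control-FMT, 114, 118 and 101 in HFD and 177, 128 and 351 in controls (difference -1.26, adjusted p = 0.0695; -0.86 and 0.0626 without control replicate 3). Egf, the growth factor made there, had 197, 202 and 172 in HFD+control-FMT, 141, 189 and 203 in HFD and 251, 274 and 325 in controls (difference -0.57, adjusted p = 0.0929, and -0.46 and 0.156 without control replicate 3). Both groups stood apart for Calb1 and Egf, with control replicate 3 the highest library in each. Bspry, a protein that binds calcium channels of this segment, was called: it had 14.8, 14.2 and 15.4 in HFD+control-FMT, 20.03, 16.4 and 17.2 in HFD and 23.1, 19.9 and 29.8 in controls, and fell by 0.66 (adjusted p = 0.0334, and 0.0321 without control replicate 3). Casr, the calcium-sensing receptor, had 6.36, 6.39 and 7.09 in HFD+control-FMT and 9.52, 8.64 and 11.4 in controls, and Wnk4, a kinase that regulates the salt transporter of the distal tubule, 30.3, 27.6 and 29.3 in HFD+control-FMT and 39.7, 36.2 and 74.1 in controls (adjusted p = 0.0902 and 0.12). Their differences were -0.50 and -0.69, and -0.40 and -0.37 without control replicate 3 (adjusted p = 0.154 and 0.174).

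Most collecting duct genes also had lower means. Of 12 tested, 0 were called, 9 had a negative difference (70.9% of all genes did) and 3 lay wholly below the controls (13.2% of all genes). The median was -0.38. Without control replicate 3 it was -0.20, and 8 were negative (55.1% of all genes). There, 3 lay wholly below (16.9% of all genes) and 2, Aqp3 and Aqp4, wholly above (12.8%), with differences of 0.20 and 0.46. Of 10 intercalated cell genes 0 were called, 6 lay wholly below the controls (13.2% of all genes) and the median was -0.45 (-0.23 without control replicate 3). The 3 collecting duct genes wholly below were the subunits of the epithelial sodium channel. Scnn1a had 34.3, 35.02 and 32.9 in HFD+control-FMT and 53.6, 39.3 and 94.5 in controls. Scnn1b had 10.5, 10.7 and 11.9 in HFD+control-FMT and 18.6, 13.2 and 33.6 in controls. Scnn1g had 7.87, 6.59 and 7.67 in HFD+control-FMT and 12.5, 9.18 and 22.6 in controls. None overlapped between the groups, and none was called (adjusted p = 0.115, 0.115 and 0.0978). The differences of Scnn1a, Scnn1b and Scnn1g were -0.76, -0.82 and -0.83, and -0.42, -0.47 and -0.49 without control replicate 3 (adjusted p = 0.105, 0.0814 and 0.071). Atp6v1b1, a proton pump subunit of intercalated cells, had 22.8, 23.7 and 24.9 in HFD+control-FMT and 33.4, 27.3 and 47.5 in controls (difference -0.54, adjusted p = 0.115, and -0.33 and 0.195 without control replicate 3). Of 10 podocyte genes, the filter cells of the glomerulus, 0 were called, 5 lay wholly below (13.2% of all genes), and the median was -0.58, or -0.21 without control replicate 3. Control replicate 3 was the highest of the 6 libraries for 12 of 14 loop and distal, 11 of 12 collecting duct, 8 of 10 intercalated and 10 of 10 podocyte members, against 60.9% of all genes. The podocyte genes summed to 60.8 to 71.8 in HFD+control-FMT, and to 70.9, 76.6 and 200.5 in control replicates 1, 2 and 3. The proximal tubule list showed the reverse only with all libraries, with a median of 0.11. Without control replicate 3 it was -0.02, as over all genes. The part of the piece of kidney sampled in these lists was not tested.

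Most myeloid, tubule injury and matrix genes had lower means in HFD+control-FMT, again with control replicate 3 at the top, while inflammation and lymphocyte genes did not share one direction. Of 18 myeloid and complement genes, 0 were called, all 18 had a negative difference with all libraries (median -0.73; 70.9% of all genes were negative) and 17 without control replicate 3 (median -0.42; 55.1% of all genes). In each, 8 lay wholly below the controls, against 13.2% of all genes with that control and 16.9% without it. C1qb, a chain of complement C1q made by macrophages, had 14.9, 9.44 and 14.3 in HFD+control-FMT, 17.4, 15.8 and 20.6 in HFD and 23.8, 19.2 and 36.3 in controls (difference -0.96, adjusted p = 0.119, and -0.71 and 0.283 without control replicate 3). Tyrobp, a signalling adaptor of myeloid cells, had 9.78, 10.5 and 11 in HFD+control-FMT, 16.8, 13.4 and 14.7 in HFD and 18.5, 14.1 and 27.4 in controls (difference -0.83, adjusted p = 0.119, and -0.59 and 0.272 without control replicate 3). Both were below every control in every transplant library, and control replicate 3 was the highest library for 16 of the 18 members. The list summed to 272 to 382 in HFD+control-FMT, and to 413, 409 and 1127 in control replicates 1, 2 and 3. Of 14 inflammation genes, 0 were called, and 9 had a negative difference with all libraries (median -0.14), whereas 10 had a positive one without control replicate 3 (median 0.10). Lbp, the inflammation gene with the most negative difference, which binds bacterial lipopolysaccharide, had 1.71, 1.15 and 1.2 in HFD+control-FMT, 1.97, 1.45 and 1.78 in HFD and 2.55, 2.53 and 5.13 in controls (difference -0.86, adjusted p = 0.0852, and 0.0912 without control replicate 3). Of 5 T and B lymphocyte genes tested, 0 were called, 3 had a positive difference, and the median was 0.38, or 0.26 without control replicate 3. The whole lymphocyte list summed to 23.7 to 45.7 in HFD+control-FMT, and to 20.2, 37.5 and 14.5 in control replicates 1, 2 and 3. Of 11 tubule injury genes 0 were called, and their median of -0.52 was -0.06 without control replicate 3, which was the highest library for all 11. Spp1, osteopontin, had 216, 177 and 184 in HFD+control-FMT, 171, 206 and 268 in HFD and 307, 604 and 2434 in controls, with a wide spread within the controls (difference -1.995, adjusted p = 0.115, and -1.16 and 0.174 without control replicate 3). The medians of the interferon-stimulated (15 genes), MHC class II (7 genes) and matrix lists (20 genes) were -0.48, -0.71 and -0.30 with all libraries and -0.07, -0.17 and -0.14 without control replicate 3, with 0 called in each.

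Genes that were higher in HFD+control-FMT with and without control replicate 3 belonged to several pathways. Suox, the mitochondrial sulfite oxidase that ends the breakdown of sulfur amino acids, had 54.4, 55.95 and 52.8 in HFD+control-FMT, 46.8, 50.9 and 50.99 in HFD and 33.5, 36.4 and 35.2 in controls. It rose by 0.62 (SE 0.11, adjusted p = 0.0353), and by 0.62 without control replicate 3 (adjusted p = 0.0493). Acad10, a member of the acyl-CoA dehydrogenase family, had 50.6, 51.6 and 46.7 in HFD+control-FMT, 43.4, 49.96 and 41.4 in HFD and 34.9, 33.8 and 29.1 in controls (rise of 0.60, adjusted p = 0.0262, and 0.52 and 0.0409 without control replicate 3). Both genes had their HFD libraries above every control. Tyw3, an enzyme that modifies a base of phenylalanine transfer RNA, had 15.6, 12.3 and 15.2 in HFD+control-FMT, 10.5, 14.8 and 12.03 in HFD and 8.07, 9.2 and 5.89 in controls (rise of 0.83, adjusted p = 0.0262, and 0.67 and 0.0321 without control replicate 3). Grb7, an adaptor of receptor tyrosine kinases, had 60.8, 69.2 and 63.3 in HFD+control-FMT, 53.9, 50.1 and 47.9 in HFD and 49.7, 46.9 and 45.2 in controls (rise of 0.44, SE 0.06, adjusted p = 0.0174, and 0.41 and 0.0261 without control replicate 3). For Grb7 the HFD libraries overlapped the controls and lay below the transplant libraries. Sdc2, a heparan sulfate proteoglycan, had 63.3, 65.5 and 63.6 in HFD+control-FMT, 63.6, 63.5 and 59.7 in HFD and 51.9, 52.7 and 45.8 in controls (rise of 0.35, adjusted p = 0.0334, and 0.29 and 0.0447 without control replicate 3). Mov10, an RNA helicase, and Ndel1, a partner of the motor dynein, rose by 0.43 and 0.35 (adjusted p = 0.0366 each), and by 0.45 and 0.35 without control replicate 3 (adjusted p = 0.0447 and 0.0493).

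Akr1b3 and C8a were called higher with all libraries alone. Akr1b3, the aldose reductase that turns glucose into the osmolyte sorbitol (chromosome 6, 34302434 to 34317478, minus strand), had 126, 124 and 121 in HFD+control-FMT, 121, 105 and 134 in HFD and 76.1, 79.5 and 74.8 in controls. Its groups were far apart, and the HFD libraries lay with the transplant ones. It rose by 0.68 (SE 0.12, adjusted p = 0.0348), and by a similar 0.66 without control replicate 3, where the adjusted p was 0.0529. It was the 1 called member of 10 genes of medullary osmolytes, whose median was 0.00. C8a, a chain of the terminal complement complex, had 13.6, 11.6 and 15.3 in HFD+control-FMT, 11.4, 13.4 and 14.5 in HFD and 7.82, 8.6 and 5.88 in controls (rise of 0.79, adjusted p = 0.0428, and 0.0732 without control replicate 3). Ppp1r15b, Nfya and Ctbs, next in order of p among the higher genes, did not pass, with adjusted p = 0.0506, 0.0523 and 0.0523.

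**Figure D3:**
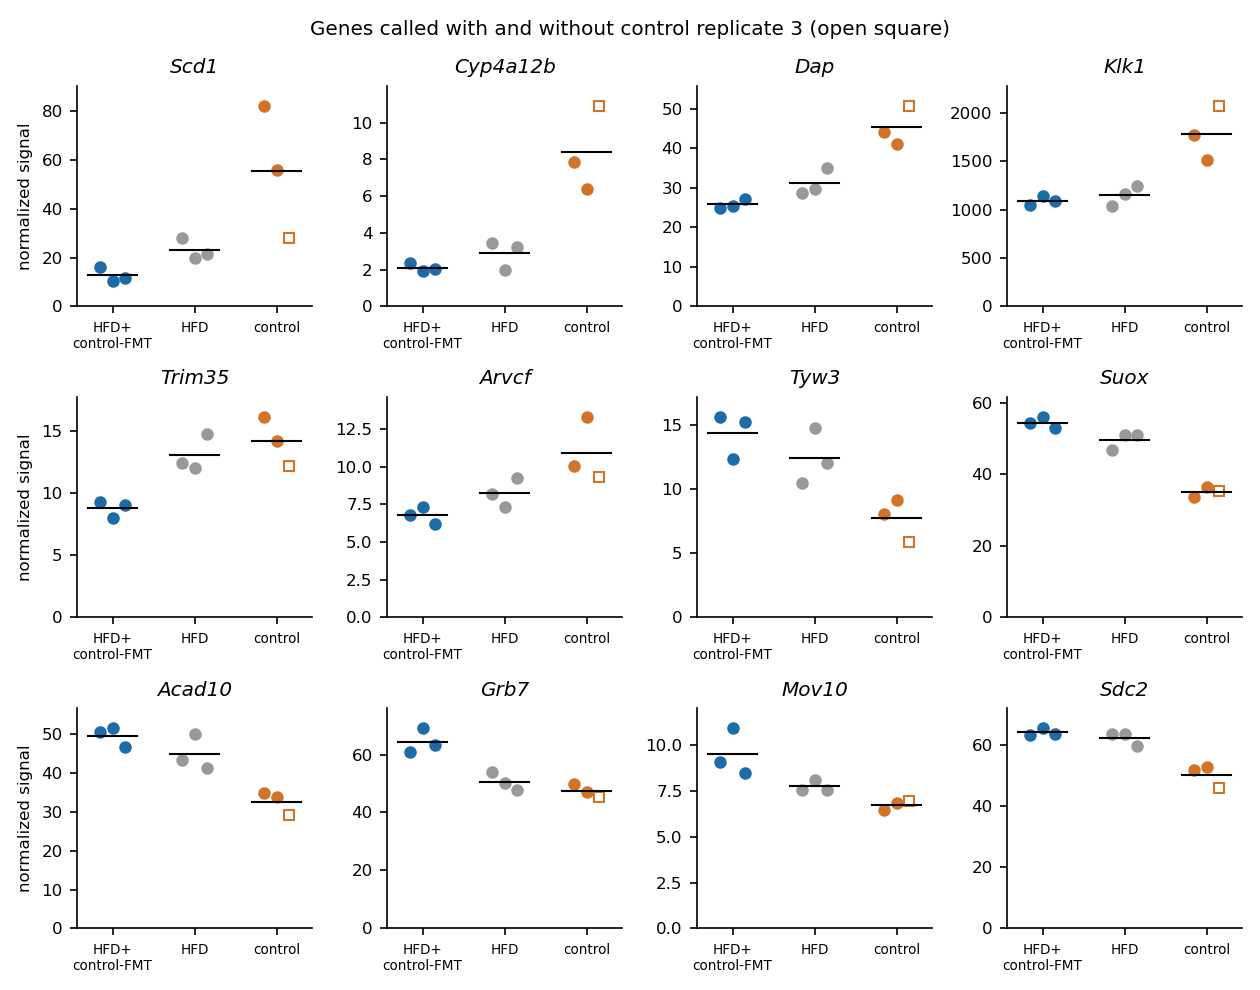
Normalized signal of 12 genes called with and without control replicate 3, in HFD+control-FMT (left), HFD (middle) and control libraries (right). Points are libraries, bars are means of 3, the open square is control replicate 3, and the y axes start at 0. In every panel the transplant points lie wholly on one side of the controls, as for Dap at 25.0 to 27.3 in HFD+control-FMT against 41.0 to 50.8 in controls.

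Among the remaining lower genes, Dap, a death-associated protein that restrains autophagy, had 25, 25.4 and 27.3 in HFD+control-FMT, 28.8, 29.8 and 35.01 in HFD and 44.1, 41.05 and 50.8 in controls. The spread within each group was small beside the gap, and Dap fell by 0.78 (SE 0.10, adjusted p = 0.0174), and by 0.70 without control replicate 3 (adjusted p = 0.0261). Trim35, a ubiquitin ligase, had 9.3, 7.98 and 9.05 in HFD+control-FMT, 12.4, 12.03 and 14.8 in HFD and 16.1, 14.2 and 12.2 in controls (difference -0.63, adjusted p = 0.0334, and -0.72 and 0.0261 without control replicate 3). Its HFD values overlapped the controls. Epb41, a protein of the membrane skeleton, had 32.3, 31.3 and 30.7 in HFD+control-FMT, 34.2, 34.4 and 34.8 in HFD and 40.3, 40.7 and 49.8 in controls (difference -0.45, adjusted p = 0.0262, and -0.36 and 0.0261 without control replicate 3). Slc25a45, a mitochondrial carrier, and Arvcf, a catenin of cell junctions, fell by 0.49 and 0.60 (adjusted p = 0.0334 and 0.0431), and by 0.53 and 0.70 without control replicate 3 (adjusted p = 0.0262 and 0.0261). Toe1, a nuclease of small nuclear RNAs, and Nudt18, which clears oxidized nucleotides, were called with all libraries (-0.50 and -0.95) and missed the threshold without control replicate 3 (adjusted p = 0.0569 and 0.0503). Syt12, a synaptotagmin, fell by 0.66 (adjusted p = 0.0378), and by 0.67 without control replicate 3 (adjusted p = 0.0493).

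Of the 21 genes called lower, 6 were of the germ cell list, and with the testis gene Fabp9, which is outside it, 7. Prm1, a protamine that packs sperm DNA, had 0, 0.3 and 0 in HFD+control-FMT, 8.08, 7.84 and 0 in HFD and 9.07, 9.44 and 14.5 in controls. Oaz3, an antizyme of the testis, had 0, 0 and 0 in HFD+control-FMT, 1.94, 2.32 and 0.09 in HFD and 2.33, 2.8 and 3.55 in controls. HFD replicate 3 was at or near 0 like the transplant libraries, while the other HFD replicates stood with the controls. Prm2, Tnp1, Tnp2 and Ldhc had the same pattern, as had Fabp9, a testis fatty acid-binding protein (adjusted p = 0.0366, and 0.0645 without control replicate 3; values of 0, 0 and 0 in HFD+control-FMT, 1.38, 1.12 and 0 in HFD and 0.95, 1.81 and 2.45 in controls). Since these genes are listed at 0 in most of the transplant libraries, no fold is given. Of the germ cell list, Oaz3 and Ldhc were called without control replicate 3 as well, among the 20 lower genes of that fit.

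Leaving out control replicate 3 brought in 26 genes, and for 22 of them that library lay inside or beyond the range of the transplant libraries. The largest after Ppard was Slc16a14, a member of the monocarboxylate transporter family, at 12.4, 12.4 and 13.3 in HFD+control-FMT, 25.6, 19.5 and 16.8 in HFD and 30.8, 33.7 and 3.23 in controls: the difference was -1.28 without control replicate 3 (adjusted p = 0.0261) and -0.29 with it (adjusted p = 0.782). Tfrc, the transferrin receptor that brings iron into cells, had 18.7, 16.96 and 19.4 in HFD+control-FMT, 22.3, 27.2 and 19.9 in HFD and 29.8, 27.7 and 14.7 in controls and fell by 0.62 (adjusted p = 0.0261) in that fit. With all libraries the difference of Tfrc was -0.32 (adjusted p = 0.347). In Slc16a14 and Tfrc control replicate 3 was the lowest of the 6 libraries. Aebp1, a protein of collagen matrix, and Sult1a1, a phenol sulfotransferase, fell by 0.71 and 0.61 (adjusted p = 0.0344 and 0.0423); here control replicate 3 was the highest library, so the difference was larger with it (-1.07 and -0.98) but missed the threshold.

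Among the genes called higher in that fit, Pck1 and Slc13a2 act in proximal tubule metabolism. Pck1, the rate-limiting enzyme of gluconeogenesis (chromosome 2, 173153048 to 173159273, plus strand), had 1014, 1434 and 861 in HFD+control-FMT, 556, 685 and 865 in HFD and 524, 491 and 1011 in controls. Control replicate 3 lay inside the transplant range and the other controls below it. Pck1 rose by 1.09 without control replicate 3 (SE 0.21, adjusted p = 0.0491), and the difference was 0.76 with it (adjusted p = 0.167). Slc13a2, the transporter that takes citrate back from the urine, had 42.5, 48.7 and 37.1 in HFD+control-FMT, 26.1, 34.1 and 26.8 in HFD and 25.96, 26.2 and 51.6 in controls. It rose by 0.69 without control replicate 3 (adjusted p = 0.0307), and the difference was 0.37 with it (adjusted p = 0.323). Ace, the enzyme that makes angiotensin II, had 114, 111 and 121 in HFD+control-FMT and 92.9, 92.01 and 30.9 in controls, without overlap and without a call (adjusted p = 0.181, and 0.244 without control replicate 3). Ren1, renin, had 29.8, 31.5 and 22.2 in HFD+control-FMT and 53.7, 26.6 and 43.2 in controls, overlapping.

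Of the 19 genes called higher only without control replicate 3, 18 had that library inside or above the range of the transplant libraries. The exception was Sugct, a glutarate CoA-transferase, at 108, 105 and 113 in HFD+control-FMT, 94.1, 102 and 89 in HFD and 70.6, 88.5 and 40.8 in controls, where control replicate 3 was the lowest library (difference 0.77, adjusted p = 0.0935; 0.45 and 0.0358 without it). Tdp2, a DNA repair enzyme, had 13.7, 12.9 and 13.5 in HFD+control-FMT, 11.7, 12.2 and 12.4 in HFD and 5.92, 6.45 and 21.4 in controls. It rose by 1.00 (adjusted p = 0.0265), and the difference was 0.45 with all libraries (adjusted p = 0.439). Nlrp6, a sensor of the inflammasome family known from the gut lining, had 36.5, 46.5 and 40.3 in HFD+control-FMT, 29.9, 34.6 and 28.9 in HFD and 25.97, 28.9 and 37.5 in controls, and rose by 0.56 (adjusted p = 0.0261; 0.42 and 0.119 with all libraries). The HFD values of Nlrp6 lay between those of control replicates 1 and 2 and those of the transplant libraries. Wipi1, an autophagy protein, Fnip2, a partner of folliculin, Mknk2, a kinase of translation initiation, Dedd2, a death effector protein, and Car14, a carbonic anhydrase of the tubule membrane, rose by 0.56, 0.56, 0.65, 0.75 and 0.55. With all libraries their differences were 0.27, 0.33, 0.39, 0.52 and 0.11, with adjusted p from 0.162 to 0.81. For Wipi1, Fnip2, Mknk2 and Car14 control replicate 3 was higher than every transplant library, and for Dedd2 it lay inside their range.

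Circadian clock genes differed widely between libraries of the same group, and 1 of them was called. The clock runs as a loop in which ARNTL and CLOCK activate the Per, Cry and Nr1d genes, whose products repress them, and drive output factors such as Tef and Dbp. Tef, an output transcription factor (chromosome 15, 81802421 to 81826863, plus strand), had 67.8, 61.9 and 76.2 in HFD+control-FMT, 43.1, 57.2 and 43.8 in HFD and 40.6, 42.2 and 97.8 in controls. It was the 1 called member of 14 repressors and output factors, and only without control replicate 3 (rise of 0.71, SE 0.12, adjusted p = 0.0261; with that control 0.30, adjusted p = 0.473). Dbp, a close relative of Tef, had 10.4, 13.1 and 43.7 in HFD+control-FMT, 3.26, 10.2 and 3.36 in HFD and 2.76, 6.9 and 90.6 in controls. Ciart, a repressor of the loop, had 1.54, 1.45 and 2.24 in HFD+control-FMT, 0.59, 0.81 and 0.92 in HFD and 0.33, 0.44 and 18.01 in controls. Per3 had 2.1, 2.66 and 4.06 in HFD+control-FMT, 1.36, 1.74 and 1.48 in HFD and 0.5, 1.54 and 6.17 in controls (adjusted p = 0.0517 without control replicate 3). For these 4 genes control replicate 3 was the highest library and replicate 3 the highest of the transplant group. The activator Arntl ran the other way, at 8.42, 8.51 and 3.39 in HFD+control-FMT, 10.9, 8.64 and 10.02 in HFD and 12.5, 10.1 and 2.71 in controls.

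Over the 14 repressors and output factors the median was 0.12, and 0.47 without control replicate 3, where 9 lay wholly above control replicates 1 and 2 (12.8% of all genes did) and 1 wholly below. With the germ cell libraries as a batch term the median was -0.18. HFD+control-FMT replicate 3 lay outside the range of replicates 1 and 2 for 12 of the 14 and for 5 of 5 activators. Control replicate 3 lay outside that of the other controls for 13 and 4. Over all genes, control replicate 3 was the highest of the 6 libraries for 60.9% and the lowest for 14.2%. The share of all genes for transplant replicate 3 was not counted, so these counts cannot be read as particular to clock genes. The activators had a median of -0.13, and -0.21 without control replicate 3. The part of the hour of collection, which the labels do not give, was not tested. Cry1 was the 1 repressor wholly below the controls in both fits, at 1.93, 1.88 and 1.21 in HFD+control-FMT and 3.84, 2.55 and 2.79 in controls (difference -0.60, adjusted p = 0.17, and -0.64 and 0.238 without control replicate 3).

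The start regions of 3 of these genes are shown because control replicate 3 and transplant replicate 3 led their groups in each of them, and each holds a motif by which clock factors are known to bind DNA (RefSeq, GRCm38.p6, 250 bases before to 50 after a start). Capitals mark the E-box CACGTG in Tef (chr15:81811164-81811463, plus strand) and Ciart (chr3:95882179-95882478, minus strand) and the D-box TTATGTAA in Per3 (chr4:151044616-151044915, minus strand).
Tef: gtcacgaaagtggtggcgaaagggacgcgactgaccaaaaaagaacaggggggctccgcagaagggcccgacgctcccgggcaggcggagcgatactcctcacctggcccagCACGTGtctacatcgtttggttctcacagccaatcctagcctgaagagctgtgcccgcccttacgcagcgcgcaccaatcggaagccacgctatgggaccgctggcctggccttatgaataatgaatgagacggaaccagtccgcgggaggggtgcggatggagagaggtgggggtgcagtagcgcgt
Ciart: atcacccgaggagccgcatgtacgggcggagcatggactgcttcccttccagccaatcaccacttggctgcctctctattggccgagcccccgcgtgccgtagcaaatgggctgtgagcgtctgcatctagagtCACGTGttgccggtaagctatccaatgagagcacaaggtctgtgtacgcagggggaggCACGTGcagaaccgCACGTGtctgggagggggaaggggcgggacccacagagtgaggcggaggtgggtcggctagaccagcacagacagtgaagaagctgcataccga
Per3: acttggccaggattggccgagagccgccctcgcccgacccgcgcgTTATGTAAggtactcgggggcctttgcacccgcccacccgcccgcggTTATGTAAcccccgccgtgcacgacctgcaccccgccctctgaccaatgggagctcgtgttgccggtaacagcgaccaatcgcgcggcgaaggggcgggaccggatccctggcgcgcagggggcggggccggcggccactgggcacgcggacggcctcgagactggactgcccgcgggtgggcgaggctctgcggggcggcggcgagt
Both motifs were searched on both strands, and CACGTG reads the same on each. Ciart holds 3 E-boxes, this window of Tef 1 and Per3 2 D-boxes. Among the tested genes, Dbp, Nr1d1, Nr1d2, Cry2 and Per2 were also led by replicate 3 in both groups. The windows of Dbp, Nr1d1, Nr1d2 and Cry2 hold neither motif, and Per2 had no window to search. Of the 13 repressor and output genes with a window in the table, 5 hold an E-box and 1 a D-box, and of 4 activators 0 hold either. Over all 32851 windows of this length in the table, 7.15% hold the E-box and 0.938% the D-box. These shares are per window, while the counts before them are per gene, and some genes have several windows. A match describes the letters and not binding.

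**Figure D4:**
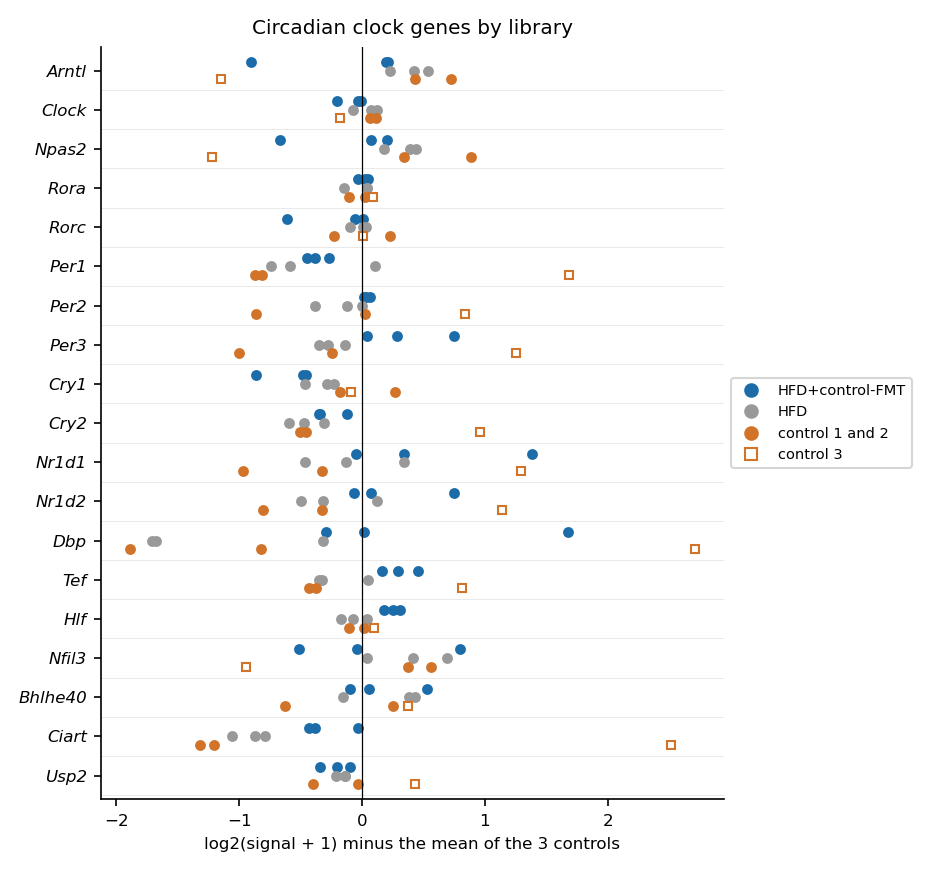
Circadian clock genes in each library, as log2(signal + 1) minus the mean of the 3 controls (x axis), with 1 row per gene, activators in the upper 5 rows and repressors and output factors below, and HFD+control-FMT above HFD and controls within a row. Control replicate 3 (open square) lies far right for Ciart and Dbp and left for Arntl and Npas2.

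Most heat shock and immediate early genes had higher means, without a call, and replicate 2 of the transplant group led them. Of 15 cytosolic heat shock genes, 13 had a positive difference (29.1% of all genes did), 4 lay wholly above the controls (4.44% of all genes did), 1 wholly below, and 0 were called, with a median of 0.52 and, without control replicate 3, of 0.28. Hspa1b, an inducible chaperone, had 123, 232 and 74.95 in HFD+control-FMT, 63.99, 13.8 and 89.3 in HFD and 5.93, 48.2 and 17.4 in controls (difference 2.82, SE 1.03, adjusted p = 0.19, and 2.82 and 0.395 without control replicate 3). Its near copy Hspa1a shares reads with it. Dnajb1, a partner of these chaperones, had 33.03, 54.2 and 27.1 in HFD+control-FMT, 27.5, 12.4 and 31.5 in HFD and 10.5, 21.7 and 10.7 in controls (difference 1.37, adjusted p = 0.129, and 1.21 and 0.325 without control replicate 3). The values spread several-fold within each group. Of 15 immediate early genes, 12 had a positive difference with all libraries (median 0.43; 29.1% of all genes) and all 15 without control replicate 3 (median 0.77; 44.9% of all genes), with 0 called. The median was -0.34 with the germ cell libraries as a batch term. Jun, a subunit of the AP-1 transcription factor, had 29.97, 76.97 and 14.4 in HFD+control-FMT, 17.9, 11.6 and 23.3 in HFD and 5.56, 12.8 and 15.99 in controls (difference 1.53, adjusted p = 0.207, and 1.81 and 0.331 without control replicate 3). Replicate 2 was the highest transplant library for 14 of the 15 immediate early genes and for 11 of the 15 heat shock genes. The share of all genes for which it was the highest was not counted, so these counts cannot be read as particular to the lists. Herpud1, a protein of the endoplasmic reticulum stress response, was called in the fit without control replicate 3 as the 1 of 16 unfolded protein response genes, at 122, 126 and 132 in HFD+control-FMT and 81.7, 101 and 184 in controls (rise of 0.47, adjusted p = 0.0493; 0.14 and 0.701 with it).

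Across the 38 lists of genes, called members were thus few. Lists with 0 members called in both fits included oxidative phosphorylation (21 genes, median -0.05, and 0.00 without control replicate 3), drug metabolism and bile acid or aryl hydrocarbon sensing (20 genes, 0.19 and 0.04), hypoxia-inducible genes (15 genes, 0.02 and -0.07) and endothelium (10 genes, -0.26 and -0.02). The 13 genes of tryptophan, kynurenine and lysine breakdown had a median of 0.11, and 0.05 without control replicate 3. Among them Aadat, an aminotransferase, had 165, 164 and 166 in HFD+control-FMT, 120, 140.04 and 135 in HFD and 218, 228 and 217 in controls (difference -0.42, adjusted p = 0.119, and -0.43 and 0.172 without control replicate 3), and the HFD libraries lay below the transplant ones. For oxidative phosphorylation the sign of the median turned after scaling to equal medians (0.06).

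**Figure D5:**
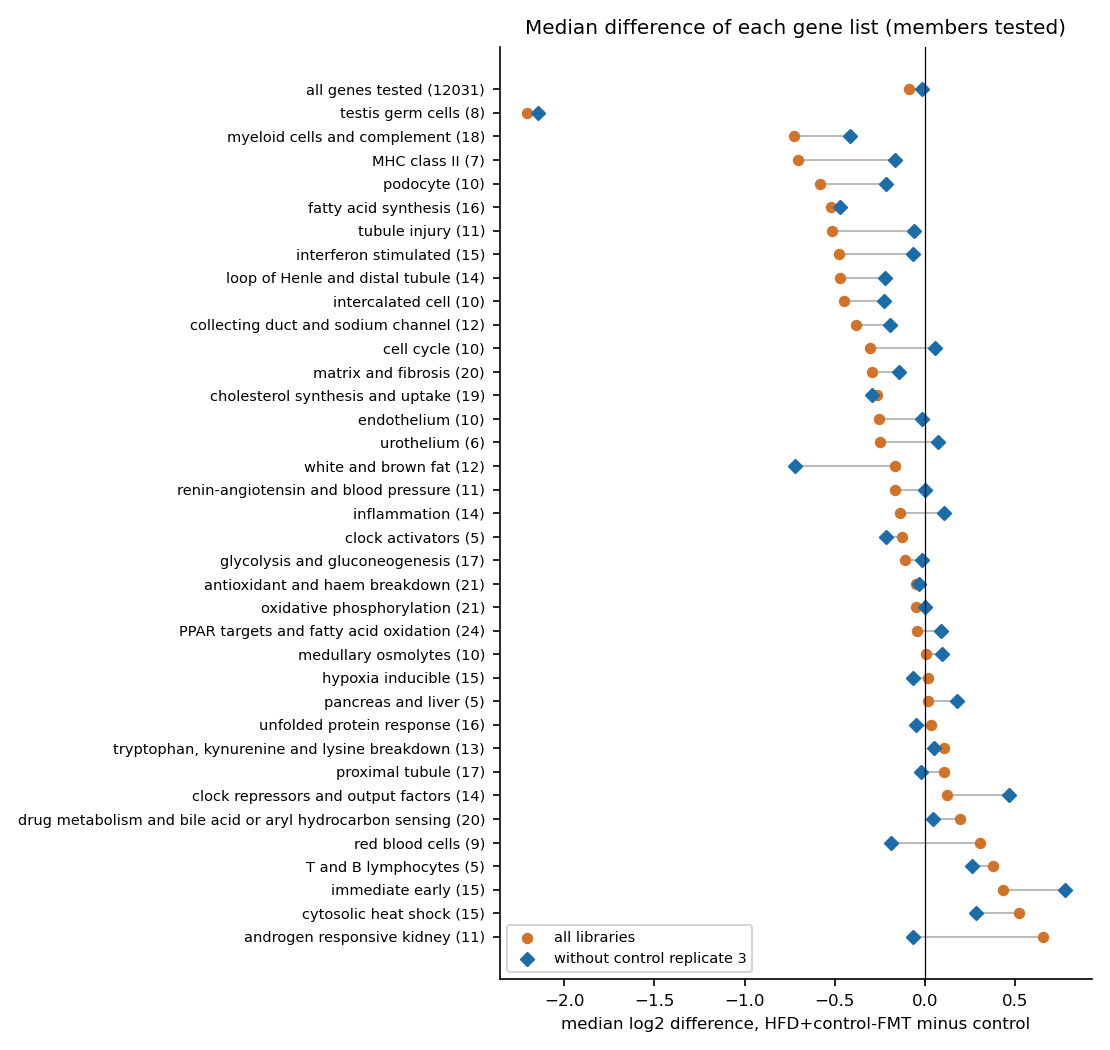
Median log2 difference of each gene list with 5 or more members tested, HFD+control-FMT minus control (x axis), with all libraries (circles) and without control replicate 3 (diamonds), and all genes tested in the top row. The circles of the podocyte, injury, interferon and MHC class II lists lie well to the left of their diamonds, and those of fatty acid and cholesterol synthesis lie close to theirs.

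The HFD libraries, from mice on the diet with no transplant, were set beside these differences. Prm1, Prm2, Tnp1 and Tnp2 were present in all 3 controls and in HFD replicates 1 and 2. They were at or near 0 in HFD replicate 3 and in the transplant libraries. The position of the HFD group is therefore mixed with whatever brought in the germ cell RNAs, and its part was not tested. For all 20 genes called in both fits, the HFD mean lay between the means of HFD+control-FMT and control, as it did for 40.8% of all genes tested. It did so for 55 of the 56 genes called in either fit. For the 26 of them called only without control replicate 3, the control mean left that library out, unlike in the 40.8%. With all 3 controls some of the 26 fell outside, such as Tef, whose HFD mean was 48.0 against 68.6 in HFD+control-FMT and 60.2 in controls. The called genes were chosen for the gap between the outer groups, which itself favours such a middle position, so these counts are a description and no test. The comparisons of HFD+control-FMT with HFD and of HFD with control share libraries with this one, and 0 genes (0%) were called by limma in each, with or without control replicate 3. Unadjusted p-values were below 0.05 for 541 genes in HFD+control-FMT against HFD and for 2091 in HFD against control, and for 1044 and 822 in the fit without control replicate 3. Side by side, the log2 differences of HFD+control-FMT minus HFD and of HFD minus control were -0.81 and -1.11 for Scd1, -0.26 and -0.52 for Dap, and -0.07 and -0.63 for Klk1. They were 0.05 and 0.63 for Akr1b3, 0.04 and 0.75 for C8a and 0.04 and 0.31 for Sdc2, where nearly the whole difference lay between HFD and control. They were 0.34 and 0.10 for Grb7 and -0.52 and -0.11 for Trim35, where most of it lay between HFD+control-FMT and HFD. Whether any of these steps differs from the other was not tested.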

How the data were processed

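RNA of frozen kidneys was extracted with Trizol and a column kit and made into Illumina libraries, per the labels' protocols. Per the submitters' processing notes, Bowtie 0.12.2 and the mouse build mm10 were used. How reads were counted, on which annotation, and how values were normalized is not given in the sources used here. What the authors deposited is a single table that holds a normalized signal for every gene and library; no unit is stated, so no count model was used and no counting interval is given. It had 19545 entries. The 26 symbols turned into dates by a spreadsheet and 1 second entry of a repeated symbol, the lower one, were left out, which left 19518 genes, and 17.3% of their values were 0.

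The 12031 genes that reached a value of 1 in at least 3 of the 18 libraries were tested on log2(value + 1) with limma 3.58.1 in R 4.3.3: 1 fit of 6 groups with 12 residual degrees of freedom, a robust spread with a trend on the mean, two-sided tests, Benjamini-Hochberg adjustment over all genes and a threshold of 0.05. The fit was repeated without control replicate 3. The script was tested on simulated data. Over all genes, deviations from the group means correlated at 0.03, -0.05 and -0.01 between same-numbered libraries, so no block was used. The control means behind these deviations include control replicate 3. No 2 libraries were alike enough to be 1 library deposited again (highest correlation across genes, 0.993).

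Named genes are, in each fit, the 12 largest increases and decreases among called genes whose groups did not overlap and whose higher mean was at least 5, filled by the smallest p where fewer passed, and for each list its called members and up to 4 with the smallest p. Adrenal and germ cell genes were passed over (3 germ cell genes). A gene that the rule names is not reported here. Other genes named, such as Klk1b9, Adipoq, Retn and the clock genes, were picked with their values in view. The comparison, its members and the gene lists were chosen with earlier results of these data known. Of the symbols tested, 99.1% were found in GENCODE M21, which gave coordinates on GRCm38 (mm10). Start regions are from RefSeq on GRCm38.p6, and Klk1 and Klk1b5 were aligned locally with Biopython 1.88. Alternatives changed the filter, the pseudocount, the scaling, the fit, the weights, the block, the germ cell batch term and each replicate in turn.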

Additional observations from a re-analysis of the deposited data

How the results depend on the processing

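Against the 30 calls (9 higher, 21 lower) with all libraries, 247 genes were called with no filter on low values (33 higher, 214 lower), 70 after quantile normalization (36 higher, 34 lower), 64 after scaling to equal medians (31 higher, 33 lower) and 71 with array weights (32 higher, 39 lower). A filter of at least 5 in 3 libraries gave 24 calls, with 13 lower. A fit of the 2 groups alone gave 6 calls, 1 higher (Gstp3) and 5 lower, all germ cell genes. With the germ cell libraries as a batch term there were 0 calls, 0 higher and 0 lower. Pseudocounts of 0.1 and 5 and a fit with neither trend nor robust estimation gave 27 to 32. Leaving out 1 library gave 0 to 406 calls, 0 to 94 higher and 0 to 312 lower. Where a group keeps 2 libraries, they are assumed to vary like the other groups. The causes of these shifts were not tested.

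Without control replicate 3 (46 calls), quantile normalization gave 47, with 26 higher, a fit of the 2 groups alone 18, with 12 lower, and array weights 41, with 20 higher. The replicate block treats same-numbered libraries as pairs. It gave 22 calls with all libraries and 31 without control replicate 3, with 14 higher. By deviations from the group means, transplant replicates 1, 2 and 3 were most like control replicates 1, 1 and 2. Whether same-numbered libraries share a factor was not tested. The block, array weights and joint omission of a transplant replicate, all without control replicate 3, were chosen after seeing the data. The fatty acid synthesis list had 3 members called after quantile normalization, 2 after median scaling and 0 with the batch term.

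Of 106 genes named or listed, the sign of the difference turned in 12. With the batch term it was 0.10 for Slc16a14, 0.10 for Prm2 and 0.18 for Smcp. Quantile normalization gave 0.0096 for Npas2. Ciart was at -0.28 with all libraries, 0.17 with a pseudocount of 0.1 and 0.80 with array weights. Without control replicate 3 Ciart was at 1.07 after quantile normalization, 0.98 in a fit of the 2 groups alone, 0.99 with the block and 0.95 with array weights. With libraries left out, differences ran from -0.15 to 0.58 for Car14, -1.31 to 0.24 for Slc16a14, -0.999 to 0.34 for Adipoq, -0.15 to 1.14 for Per3, -0.48 to 2.20 for Dbp, -0.93 to 0.20 for Arntl, -0.91 to 0.31 for Npas2, -0.94 to 1.05 for Ciart, -0.33 to 0.85 for Acot1, -0.75 to -0.10 for Smcp and -0.11 to 0.50 for Herpud1. Read counts are unknown, so depth can be stated only relative to other libraries.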

Other observations

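Some of the widest differences belonged to genes with no call, picked after their values were seen. Gstp3, a glutathione S-transferase of the pi class, had 13.2, 26.3 and 25.9 in HFD+control-FMT, 1.03, 10.7 and 16.01 in HFD and 1.11, 0.78 and 1.75 in controls. The transplant libraries all lay above every control, and the HFD libraries ran from the control level to the transplant range (difference 3.33, limma adjusted p = 0.198, and 3.50 and 0.387 without control replicate 3). A fit of these groups alone called it (adjusted p = 0.0358). Hdc, the enzyme that makes histamine, had 1.38, 0.82 and 0.87 in HFD+control-FMT, 0.82, 0.66 and 159.99 in HFD and 80.2, 2.97 and 68.5 in controls. The transplant libraries were uniformly low, and the high values were in 1 HFD library and in control replicates 1 and 3 (difference -3.81, adjusted p = 0.202, and -3.16 and 0.511 without control replicate 3). Hbb-bs, an adult beta-globin of red blood cells, had 501, 1318 and 549.8 in HFD+control-FMT, 791, 879 and 58.3 in HFD and 0, 579 and 394 in controls. It was listed at 0 in control replicate 1 alone among these 9 libraries, and its difference was 3.54 with that library and 0.58 without it.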
